A study of Mus musculus with 9 samples.

Results

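The 9 genes described here encode subunits of the nexin-dynein regulatory complex (N-DRC): Drc1, Ccdc65, Drc3, Gas8, Tcte1, Fbxl13, Drc7, Iqcg and Iqcd. They were chosen by name, as the mouse genes for subunits of this complex, with earlier results of these data known. All 9 had a row among the 23074 genes of the count table, and all 9 passed the filter on low counts, which left 15613 genes to test. The libraries came from decapsulated testes of 5 wild type (WT) and 4 Rfx2-/- mice of postnatal days 29 to 30 (P30), 1 library a mouse, on a background mixed from C57BL/6, 129/Sv and FVB/N. In Rfx2-/- mice 1 exon, coding for much of the DNA binding domain of RFX2, had been removed from loxP sites in every tissue by a universally expressed ACTB-cre, and in the mixed line the methods describe a retained neomycin cassette. RFX2 is a member of the RFX family of transcription factors, which bind the X-box, a palindromic promoter motif. No other treatment or allele was given for either genotype.

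The axoneme, the microtubule core of motile cilia and of the sperm tail, bends because dynein arms slide its doublet microtubules past each other. The N-DRC links neighbouring doublets, limits their sliding and relays signals to the dynein arms. Its base and length are built on long coiled-coil proteins, DRC1, CCDC65 (DRC2) and GAS8 (DRC4), and the part that reaches the next doublet holds leucine-rich repeat proteins, DRC7 and the IQ motif proteins, a motif known for calmodulin binding. Mutations in DRC1, CCDC65 or GAS8 cause primary ciliary dyskinesia in humans. The comparison of WT and Rfx2-/- testes asked which of the subunit mRNAs depend on RFX2 and whether they moved together.

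They did not move by the same amount. Levels are given as CPM, counts per 1000000 counts of a library after scaling between libraries. Drc1 fell to 1.33%, Drc7 to 3.73%, Ccdc65 to 12.5% and Gas8 to 38.1% of the WT mean, Drc3 fell to 60.1%, and Fbxl13 and Iqcg had means of 95% and 101% of WT. A gene was called lower or higher when edgeR's quasi-likelihood test with Benjamini-Hochberg adjustment over all genes gave an adjusted p of at most 0.01 and the change exceeded 2-fold. By this rule 4 of the 9 members were lower, against 3.68% of all genes tested. None (0) was higher in edgeR, against 0.826% of all genes, and 0 were higher at an unadjusted p under 0.05 or with DESeq2. At an unadjusted p under 0.05 (edgeR), 7 members were lower, of which 3 were not called. The share of all genes at that unadjusted limit is not given here. In 5 members every Rfx2-/- library lay below every WT library, against 9.70% of all genes. The median log2 fold change was -0.73 over the members and 0.032 over all genes tested.

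**Figure D1:**
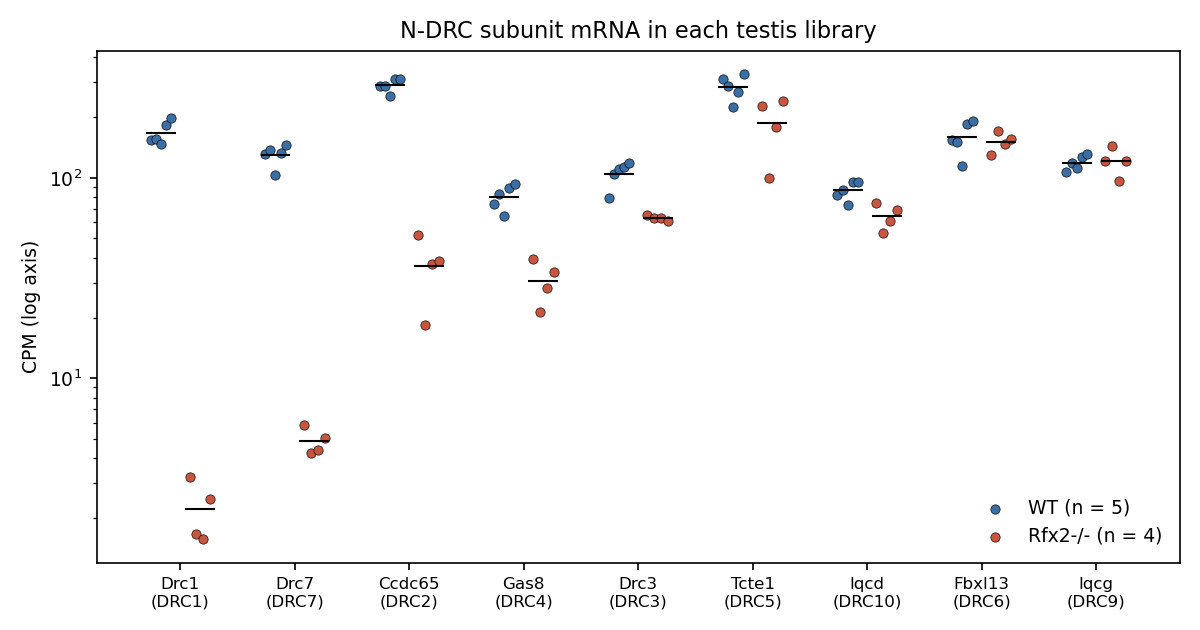
Level of each subunit mRNA in CPM (log axis) in the 5 WT (blue) and 4 Rfx2-/- (red) libraries, with the group mean as a line and genes in order of their fold change. The groups are separate for Drc1, Drc7, Ccdc65, Gas8 and Drc3, and overlap for Tcte1, Iqcd, Fbxl13 and Iqcg.

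Some facts on the libraries bear on all the values that follow. Depth ranged from 13574764 to 15193330 counts, apart from Rfx2-/- replicate 1 with 28800855, so that 3 counts, the limit that a count of 0 allows, stood for at most 0.234 CPM in any library. Rfx2 itself, counted over its remaining exons too, fell from 549 ± 54.5 CPM (SD, n = 5) to 146 ± 59.8 CPM (SD, n = 4), with an adjusted p of 7.81e-04 in edgeR, and its highest Rfx2-/- library, at 199 CPM, was under the lowest WT library, at 471 CPM. Rfx2-/- replicate 2 stood apart from the other Rfx2-/- libraries: relative to their mean, the median log2 deviation was 0.57 for genes with under 2 kb of exon, and -0.88 for those with over 8 kb. It also held 252 CPM of a summed list of 7 markers of efferent duct or epididymis epithelium, of which Crisp1 made up 225 CPM, while Lcn8 and Lcn9 were at 0 there. The sum was 0.818 to 6.38 CPM in the other 8 libraries. Values are therefore also given without this library where it changed a call or a direction or moved a value by over 1.5 times, and its part in the results was tested only in that way.

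Drc1 (DRC1, ENSMUSG00000073102, chr5:30281388-30366695, plus strand, GRCm38) encodes a coiled-coil subunit at the base of the complex. Drc1 had 154, 156, 148, 183 and 198 CPM in WT replicates 1 to 5, and 3.22, 1.67, 1.57 and 2.49 CPM in Rfx2-/- replicates 1 to 4. All Rfx2-/- libraries were low, and none came near the WT range, but the gene was still counted in each, with 23 to 97 reads. The means were 168 ± 21.7 CPM (SD, n = 5) and 2.24 ± 0.774 CPM (SD, n = 4). The fitted change was 72.8-fold, or -6.19 in log2 fold change (SE 0.25, adjusted p = 1.38e-08 in edgeR). It is the largest change among the 9 members.

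Ccdc65 (DRC2, ENSMUSG00000003354, chr15:98708207-98723336, plus strand) encodes the coiled-coil partner of DRC1. The WT libraries had 288, 287, 256, 312 and 310.3 CPM, the narrowest spread of the members in WT relative to the mean (CV 7.84%). The Rfx2-/- libraries had 51.9, 18.4, 37.1 and 38.3 CPM, all far below WT, with replicate 2 lowest. The log2 fold change was -2.99 (SE 0.26, adjusted p = 8.77e-06 in edgeR), a 7.96-fold decrease. Without Rfx2-/- replicate 2 it was -2.77 (SE 0.15) and the call did not change.

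Gas8 (DRC4, ENSMUSG00000040220, chr8:123518834-123536650, plus strand) encodes the other long coiled-coil subunit. It had 73.7, 82.9, 64.8, 88.6 and 92.6 CPM in WT and 39.3, 21.5, 28.2 and 33.9 CPM in Rfx2-/- libraries. The groups did not overlap, although the gap between 39.3 and 64.8 CPM was much narrower than for Drc1. The log2 fold change of -1.39 (SE 0.19) had an adjusted p of 3.77e-04 in edgeR, and its 95% interval ran from 28.8% to 50.7% of WT. That interval includes 2-fold, and in a test against the 2-fold limit itself Gas8 was not called (adjusted p = 0.234, edgeR). Another gene model, Gm20388, spans the gene and had 0 counts in every library.

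Drc7 (DRC7, ENSMUSG00000031786, chr8:95055103-95078141, plus strand) encodes a subunit of the linker that is known to be needed for the mouse sperm flagellum. The 5 WT libraries had 132, 137, 103, 133 and 146 CPM. The 4 Rfx2-/- libraries had 5.85, 4.21, 4.36 and 5.04 CPM. The Rfx2-/- values were low and close to each other (CV 15.3%), a spread similar in relative size to that in WT (12.2%). Drc7 fell 26.6-fold, with a log2 fold change of -4.73 (SE 0.18) and an adjusted p of 9.18e-09 in edgeR.

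Of the leucine-rich repeat subunits, Drc3 (DRC3, ENSMUSG00000056598, chr11:60353329-60394341, plus strand) fell by less. It had 79.1, 104, 110.4, 113 and 119 CPM in WT libraries, and 65.5, 63.1, 63.0 and 61.0 CPM in Rfx2-/- libraries. The Rfx2-/- libraries were all below WT and differed from each other little (SD 1.83 CPM). Drc3 passed the p limit (adjusted p = 0.00499, edgeR) but, at a log2 fold change of -0.73 (SE 0.14), not the fold limit, and so was not called. Its pass of the p limit depended on single libraries: when each was left out in turn the adjusted p ran from 0.00153 to 0.0289 (edgeR), staying at or under 0.01 only without WT replicate 1 or Rfx2-/- replicate 2, and it was 0.0170 with scaling by total counts.

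Tcte1 (DRC5, ENSMUSG00000023949, chr17:45523434-45542680, plus strand), another leucine-rich repeat subunit, known to be needed for normal sperm motility in mice, had a wide spread among the Rfx2-/- libraries (CV 34.2%). They had 228, 100.3, 178 and 242 CPM, against 312, 289, 225, 269 and 329.6 CPM in WT. Rfx2-/- replicate 2 was lowest, replicate 3 was also below WT, and replicates 1 and 4 lay in the WT range. The log2 fold change was -0.60 (SE 0.23, adjusted p = 0.120 in edgeR), and -0.40 (SE 0.14, adjusted p = 0.0849) without that replicate. The gene lies on the chromosome of Rfx2, 11233217 bases from it, on a mixed strain background, and the part of strain in its level was not tested.

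Fbxl13 (DRC6, ENSMUSG00000048520, chr5:21483847-21645634, minus strand), an F-box protein with leucine-rich repeats, overlapped fully between genotypes. WT libraries had 154, 151, 115, 186 and 193 CPM, and all 4 Rfx2-/- libraries, at 131, 172, 148 and 156 CPM, lay between the WT extremes. The log2 fold change was -0.075 (SE 0.17, adjusted p = 0.798 in edgeR), with a 95% interval of 73.6% to 122% of WT.

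Of the IQ motif subunits, Iqcg (DRC9, ENSMUSG00000035578, chr16:33012683-33056218, minus strand), known to be needed for the mouse sperm flagellum, had 107, 118, 112, 128 and 131 CPM in WT and 121, 144, 95.9 and 122 CPM in Rfx2-/- libraries. Both the highest and the lowest of the 9 values were in Rfx2-/- mice. The log2 fold change was 0.020 (SE 0.14, adjusted p = 0.941 in edgeR), and the 95% interval of 81.6% to 125.9% of WT lay within 2-fold in both directions. Iqcd (DRC10, ENSMUSG00000029601, chr5:120589016-120607118, plus strand) had 73.4 to 95.4 CPM in WT, with a median of 86.7 CPM, and 53.0, 60.6, 69.0 and 74.5 CPM in Rfx2-/- libraries, so that 1 Rfx2-/- library was above the lowest WT library. Its log2 fold change of -0.43 (SE 0.14) had an adjusted p of 0.0803 in edgeR and an interval of 59.9% to 92.4% of WT.

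Tcte1, Fbxl13, Iqcg and Iqcd share exon bases with a gene on the other strand, and whether strand was used in counting was not stated. Iqcg shares 2965 of 5618 exon bases with Lrch3, Tcte1 729 of 3075 with Tmem151b, Iqcd 269 of 1680 with Rita1 and Fbxl13 161 of 2865 with Lrrc17. The counts of these members, and of Iqcg above all, are to that extent uncertain. Lrch3 had 69.5 ± 5.18 CPM in WT (SD, n = 5) and 60.6 ± 21.1 CPM in Rfx2-/- (SD, n = 4), and none of the 4 partner genes was called. Drc1, Ccdc65 and Drc7 shared no stretch of 50 bases with another annotated gene, and Drc3 and Gas8 shared 1.53% and 1.29% of theirs.

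**Figure D2:**
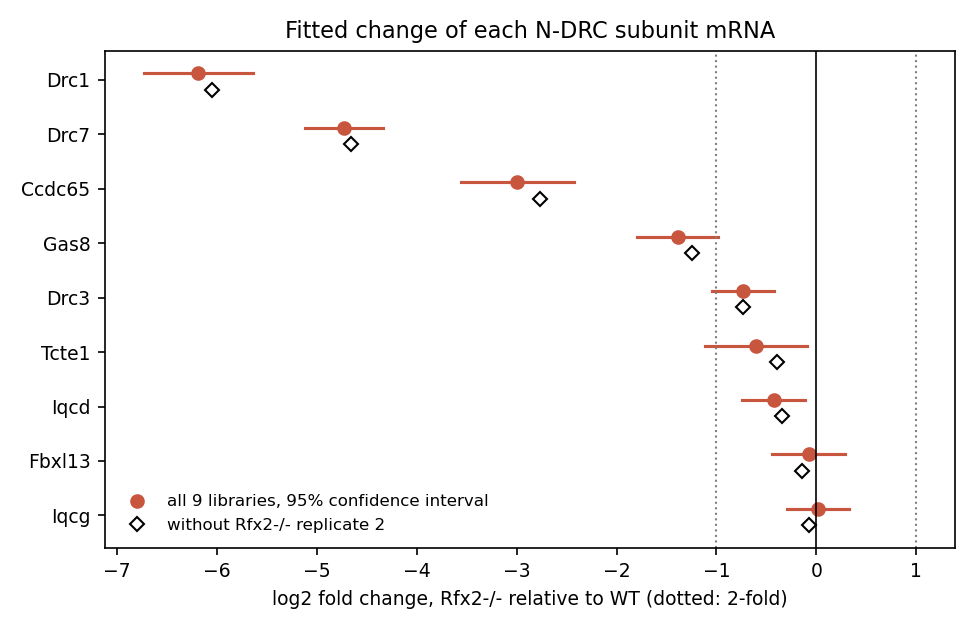
Log2 fold change of each subunit mRNA in Rfx2-/- relative to WT testes with its 95% confidence interval (red), and the estimate without Rfx2-/- replicate 2 (open diamonds). The solid line marks no change and the dotted lines 2-fold changes, and the intervals of Drc1, Drc7 and Ccdc65 lie wholly beyond 2-fold, at -6.19, -4.73 and -2.99.

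Whether 2 subunits changed by different amounts was tested on their ratio within each library, after 0.5 was added to each CPM. Scaling between libraries cancels from such a ratio except for the effect of the added 0.5, which is felt most for Drc1 and Drc7 in Rfx2-/- libraries. For all 36 pairs the log2 ratio was compared between genotypes with a two-sided exact permutation test over the libraries, for which the smallest possible p is 0.0159, and p-values were adjusted over the 36 pairs. The ratio differed in 30 pairs (adjusted p of 0.0197 in 29 pairs and of 0.0381 for Drc3 and Gas8). Every pair that holds Drc1, Drc7, Ccdc65 or Gas8 passed. Thus even the 2 most lowered genes parted: the log2 ratio of Drc1 to Drc7 went from 0.36 ± 0.15 (SD, n = 5) to -1.0 ± 0.21 (SD, n = 4), and that of Drc1 to its partner Ccdc65 from -0.80 ± 0.10 to -3.71 ± 0.44.

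The 6 pairs that did not pass lie among the 5 members that were not called. The ratio of Fbxl13 to Iqcg changed by -0.067 (adjusted p = 0.686, exact permutation test) and that of Drc3 to Tcte1 by -0.046 (adjusted p = 0.921). For the other 4, Drc3 and Iqcd, Tcte1 and Iqcd, Tcte1 and Fbxl13, and Fbxl13 and Iqcd, the changes were -0.29, -0.24, -0.61 and 0.37 on the log2 scale. Without Rfx2-/- replicate 2 those of these 4 pairs were -0.37, -0.054, -0.28 and 0.22, and the changes for Drc3 and Tcte1 and for Fbxl13 and Iqcg were -0.32 and -0.042. A missed threshold does not show that these subunits changed alike: the SD of the ratio of Tcte1 to Fbxl13 over the Rfx2-/- libraries was 0.71. Iqcg and Iqcd did part, with a change of 0.44 in their log2 ratio, or 0.26 without Rfx2-/- replicate 2 (adjusted p = 0.0443, exact permutation test). Without Rfx2-/- replicate 2, where the smallest possible p is 0.0357, 29 pairs passed, and the pair of Drc3 and Gas8 did not (adjusted p = 0.0830, exact permutation test).

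**Figure D3:**
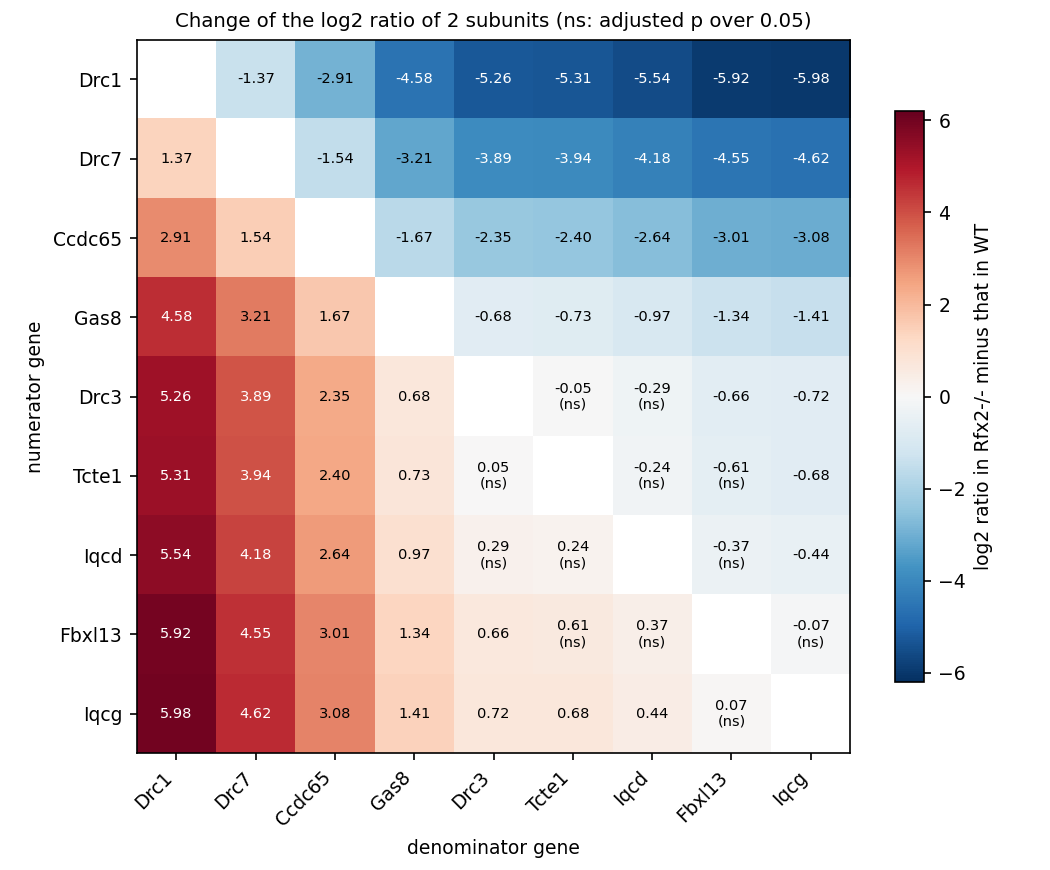
Change between genotypes of the log2 ratio of each pair of subunits (row gene over column gene, Rfx2-/- minus WT), in order of fold change, with blue for a ratio that is lower in Rfx2-/-. Pairs marked ns had an adjusted p over 0.05 in the exact permutation test, and all 6 of these are among Drc3, Tcte1, Iqcd, Fbxl13 and Iqcg.

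Compared per exon length, as CPM per kb of exon, the subunits of a WT testis were not equally abundant as mRNA. Ccdc65 was highest, at 146 ± 11.4 (SD, n = 5), followed by Tcte1 at 92.6, Drc1 at 67.9, Fbxl13 at 55.7, Iqcd at 51.5, Drc7 at 46.0, Drc3 at 23.2, Gas8 at 21.4 and Iqcg at 21.2. Of the neighbours in this order, only Ccdc65 and Tcte1, and Drc7 and Drc3, had WT ranges that did not overlap. If strand was not used in counting, reads on exon bases shared with another gene were not counted. With these bases left out of the length, Iqcg had 44.9 and stood between Drc7 and Drc3. Iqcd (61.3) then stood above Fbxl13 (59.1), and the WT range of Tcte1 (95.7 to 140) overlapped that of Ccdc65 (128 to 156).

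The order in Rfx2-/- testes was another one. Tcte1 led with a mean of 60.9 CPM per kb, then came Fbxl13 at 52.9, Iqcd at 38.3, Iqcg at 21.5, Ccdc65 at 18.3, Drc3 at 13.97, Gas8 at 8.15, Drc7 at 1.72 and Drc1 at 0.905. Summed over the 9 genes, the level per kb was 443 to 593 in WT libraries and 181 to 240.2 in Rfx2-/- libraries. Ccdc65 made up a mean of 27.8% of that sum in WT and 8.26% in Rfx2-/-, and Drc1 12.9% and 0.411%, while the shares of Tcte1 (17.6% and 27.5%) and Fbxl13 (10.5% and 25.0%) were larger in Rfx2-/-. With the shared exon bases left out of the length, the order in Rfx2-/- was the same, and Iqcg had 45.5 CPM per kb. Its share was then 7.62% in WT and 17.2% in Rfx2-/-, in place of 4.05% and 10.1%.

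**Figure D4:**
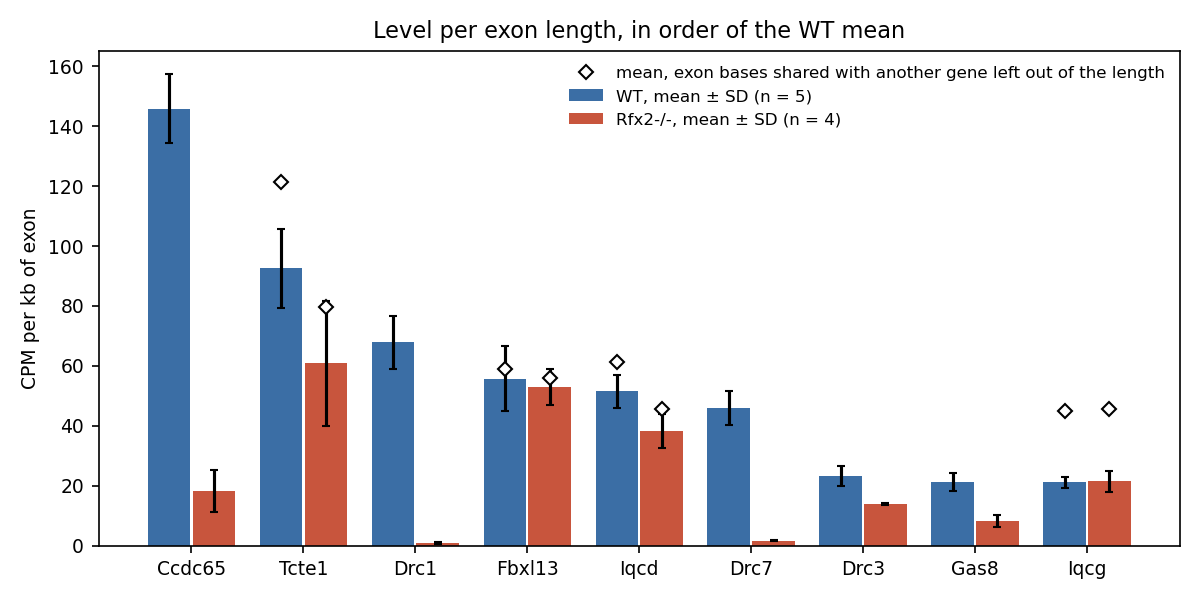
Level of each subunit mRNA per kb of exon, as the mean of the 5 WT (blue) and 4 Rfx2-/- (red) libraries, with SD as error bars and genes in order of the WT mean. Open diamonds give the mean with exon bases shared with another gene left out of the length, for the 4 genes that share over 100 bases, of which Iqcg moves most as a ratio, from 21.2 to 44.9 in WT.

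Across the libraries of a genotype the members also shared features. WT replicate 3 had the lowest level of 7 of the 9 members among WT libraries, and WT replicate 5 the highest of 8. Among Rfx2-/- libraries, replicate 1 had the highest level of all 4 called members, and replicate 2 the lowest of 3 of them, with Drc1 lowest in replicate 3. Relative to the other Rfx2-/- libraries, replicate 2 was lower in Ccdc65 by -1.17, in Tcte1 by -1.09 and in Gas8 by -0.63 on the log2 scale, and higher in Fbxl13 and Iqcg, by 0.25 and 0.35. Whether these deviations follow exon length was not tested.

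The promoters of 7 members were in the RefSeq table (GRCm38.p6), as windows from 250 bases before to 50 after the start site. They were searched on both strands for the X-box palindrome of 14 letters: an arm of GTTGCC, then A and T, then an arm of GGCAAC. The best match of 6 of them is shown, in 30 bases and with the matching window in capitals, so that the promoters of the genes that fell most and of those that kept near WT means can be read side by side. The first 4 are the called members, in order of their change, and the last 2 are members that were not called.

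Drc1, chr5:30281366-30281395, plus strand: gtgactgcTTTCCCTTGGCAACggcttgtt
Drc7, chr8:95055095-95055124, plus strand: cctccgctGTTACCATAGAGACaagtaaca
Ccdc65, chr15:98708173-98708202, plus strand: aggtccttGTTGCTAGGAGACAagatgcgt
Gas8, chr8:123518773-123518802, plus strand: cactcccgGTTGCCCAGGTCCCttagggcg
Fbxl13, chr5:21645603-21645632, minus strand: tcctttgtGGTTGCTAGGCAACgctccggc
Iqcg, chr16:33056184-33056213, minus strand: cgcgacgcGTTGCCATAGCTACcgattagt

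The closest match of the 7 was in Iqcg, which had no detectable change, with 12 of 14 letters, a match reached by 1.20% of all 32851 windows. Drc1, the gene that fell most, had 11 letters (3.37% of windows reached this) and Drc7 had 10 (12.2%). Gas8, Drc3 and Fbxl13 had 9 letters (48.0% of windows had this many or more), and Ccdc65 had 8, the median of all windows. The matches of Drc1, Iqcg and Fbxl13 were each centred 12 bases before the start site, that of Ccdc65 6 bases before it and that of Drc7, which begins at the start site, 7 bases after it. Fbxl13 had an equally good match centred 86 bases before the start, Drc3 had 2 such matches, 25 bases before and 4 bases after it, and that of Gas8 was centred 47 bases before it. An exact arm was present in Drc1, Gas8, Fbxl13 and Iqcg, and in 12.5% of all windows. The number of matching letters thus did not follow the order of the fold changes.

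In a search added after seeing the data, the arms were allowed 0 to 3 bases between them and only their 12 letters were compared. Fbxl13 then had the closest match, 11 of 12 letters with 1 base between the arms (1.20% of windows), again in a member that was not called. Drc1, Drc3 and Iqcg had 10 (6.37%), and the called members Ccdc65, Drc7 and Gas8 had 9 (36.2%). A match is a description of these letters and not evidence of binding, and the absence of a close match says nothing of sites outside the window. The promoters of Tcte1 and Iqcd were not analysed here.

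**Figure D5:**
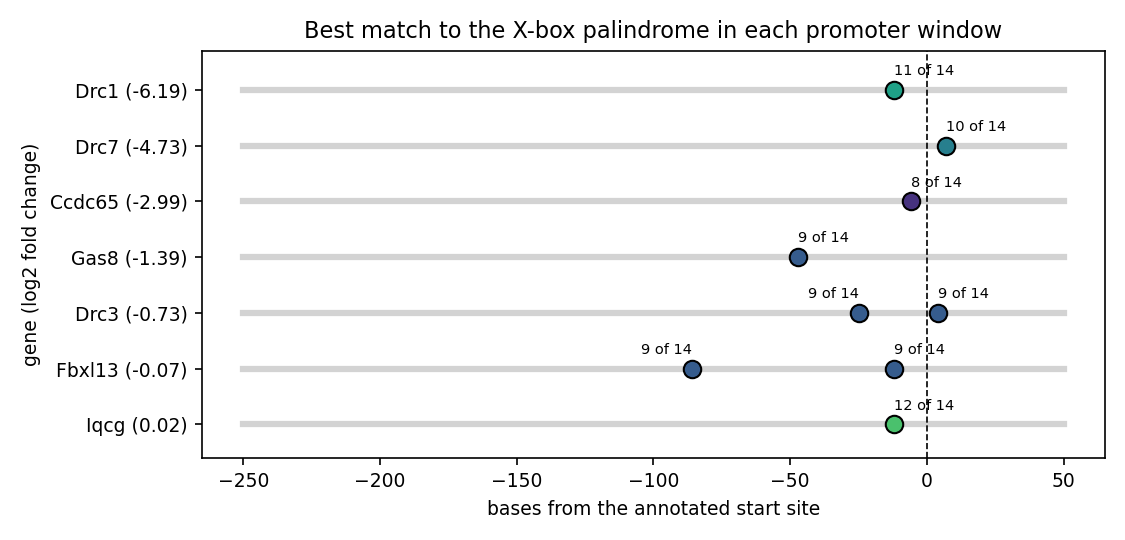
Centre of the best match to the X-box palindrome in the promoter windows of 7 members, in bases from the annotated start site, with the number of matching letters of 14 beside each point (and as its colour) and the log2 fold change beside each gene. Genes with 2 equally good matches have 2 points, and the 2 closest matches, in Iqcg (12 letters) and Drc1 (11 letters), belong to the genes at the opposite ends of the fold changes.

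The genes whose log2 CPM over the 9 libraries was most like that of Drc1, among 12900 genes with a mean of at least 50 counts, were Ttc6 and Spef2 (Pearson r = 0.9996 for both), Ccdc180 (0.9994), the member Drc7 (0.9987) and Bean1 (0.9986). Spef2 is a gene known to be needed for the sperm tail. For Gas8 they were 4930562C15Rik (0.993), Cep128, Lmntd2, Zc2hc1c and Ttc25 (0.991). All were called lower, with log2 fold changes from -5.03 (Spef2) to -1.13 (Ttc25). These correlations are a description: the 9 libraries fall into 2 genotypes, and any gene that differs strongly between them correlates with any other.

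Beyond the 9 members, subunits of the complex gave no call. Efcab2 (DRC8), a calmodulin-like protein, had a log2 fold change of -0.082 (SE 0.15) and Iqca, an IQ motif protein with an ATPase domain, of -0.063 (SE 0.23). Ccdc153 (DRC12) was counted 3 to 18 times a library and did not pass the filter. Among neighbouring axonemal structures, in 4 lists with 27 tested genes, 8 genes were called lower and 0 higher by both edgeR and DESeq2. Over all genes tested, edgeR called 3.68% lower and 0.826% higher. In these lists 1 gene was higher at an unadjusted p under 0.05 (edgeR). Lower at that limit were 6 radial spoke genes, 5 inner dynein arm genes and 2 axoneme ruler genes. The list of the calmodulin- and spoke-associated complex and the MIA complex had 3.

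The molecular ruler that sets where the N-DRC and the inner arms attach is made of 2 coiled-coil proteins. Of these, Ccdc40 fell from 234 ± 16.8 CPM (SD, n = 5) to 16.0 ± 5.92 CPM (SD, n = 4), a log2 fold change of -3.86 (adjusted p = 7.81e-07, edgeR). Its partner Ccdc39 had -0.71 (adjusted p = 0.0161, edgeR), which did not pass. In the list of the calmodulin- and spoke-associated complex and the MIA complex, structures that touch the N-DRC or the inner arms, 1 of 5 genes was lower, Maats1 (-3.02). Wdr66 of the same list had 0.90 (adjusted p = 0.0201, edgeR), and with Rfx2-/- replicate 2 left out 1 gene of this list was called higher.

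Radial spokes, which carry signals from the centre of the axoneme, had 3 of 10 tested genes lower: Rsph9, a spoke head protein (-5.69), Rsph10b (-1.63) and Dnajb13, a co-chaperone of the spoke (-1.35). Inner dynein arms, the motors that the N-DRC contacts, also had 3 of 10, the heavy chains Dnah10 (-4.11) and Dnah6 (-2.55) and the light intermediate chain Dnali1 (-1.66). The list medians were -0.42 for the spokes and -0.70 for the inner arms, against 0.032 over all genes, and -0.42 and -0.41 without Rfx2-/- replicate 2. Rsph9, like Drc1 and Drc7, kept little of its WT level: 102 ± 16.5 CPM (SD, n = 5) in WT and 1.94 ± 0.311 CPM (SD, n = 4) in Rfx2-/-.

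Whole testes hold many cell types, and in bulk RNA fewer cells of a type and less RNA per cell cannot be told apart. The paper reports developing axonemes in WT already at the late round spermatid stage. For Rfx2-/- mice the paper reports a complete arrest before round spermatids elongate. All 12 markers of elongating spermatids had log2 fold changes below 0, with a median of -0.76 and a range of -2.27 to -0.10. Only Spata18 was called lower among them, and 5 were without Rfx2-/- replicate 2, or 4 with DESeq2 on all libraries. At an unadjusted p under 0.05 (edgeR), 10 of the 12 were lower and 0 higher. Their summed level was 12059 to 23625 CPM in WT and 10206 to 13643 CPM in Rfx2-/- libraries. These mRNAs were thus still present in the arrested testes, and their level is not a count of elongating cells. WT replicate 3, in which most members were lowest, had the lowest WT sum. That library also had the lowest WT sum of the round spermatid (947 CPM), pachytene spermatocyte (8730 CPM) and radial spoke (2996 CPM) lists. The median change of the members, -0.73, was close to that of these markers. Drc1, Drc7 and Ccdc65 lay below the lowest marker, Spata18 (-2.27). Gas8, at -1.39, lay between Spata18 and the next lowest marker, Prm1 (-1.21). Drc3, Tcte1 and Iqcd lay among the other markers, and Fbxl13 and Iqcg above the highest. How far the markers' change accounts for the members' was not tested.

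Round spermatid markers had a median log2 fold change of 0.33. Of 8, 0 were called by edgeR or DESeq2, 4 were higher and 0 lower at an unadjusted p under 0.05, and their summed level was 947 to 1527 CPM in WT and 1144 to 1740 CPM in Rfx2-/- libraries, with 1740 CPM in replicate 2. Lists for pachytene spermatocytes, spermatogonia, Sertoli cells, Leydig cells, peritubular cells and macrophages likewise had 0 of 38 genes called by either tool (6 higher and 1 lower at an unadjusted p under 0.05), with medians from -0.035 (peritubular) to 0.38 (macrophage). Without Rfx2-/- replicate 2 the median was 0.22 for macrophages, and the sign turned for peritubular cells (0.066), Leydig cells (0.19 to -0.023), spermatogonia (0.11 to -0.033) and pachytene spermatocytes (0.0068 to -0.013). The counts at an unadjusted p under 0.05 have no share of all genes beside them, so whether they are unusual was not tested. Markers of each of these testis cell types were detected in both genotypes.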

How the data were processed

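The authors sequenced RNA from testes of 5 WT and 4 Rfx2-/- mice (TruSeq libraries, single reads, HiSeq 2000), with reads mapped uniquely to GRCm38. The submitters' processing notes name CASAVA 1.8.2, STAR 2.4 and featureCounts 1.4.6; their roles follow the methods. The values deposited are raw counts, whole numbers without normalization, of reads over merged exons of protein coding isoforms; reads on exons of different genes were left out. Strand use is not stated. If strand was not used, such counts miss the exon bases that genes on opposite strands share. Groups came from the genotype labels. Columns were matched by animal number, and replicate numbers only name animals.

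Gene names and exons came from GENCODE M21 (96.6% of IDs matched). Counts were tested with edgeR 4.0.16 in R 4.3.3 (quasi-likelihood F test, robust, TMM, filterByExpr), with Benjamini-Hochberg adjustment over 15613 genes; CPM are TMM-scaled. Calls used an adjusted p of at most 0.01 and over 2-fold, the limits of the study, which used DESeq and states no adjustment. Pair tests used log2 of CPM plus 0.5 (numpy 2.4.6). The scripts were tested on simulated data. Libraries of a genotype differed by a chi-square of at least 4.52 per gene, so none was counted as a duplicate. Limits for 0 counts cover counting error only. Each library came from a separate mouse.

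The members, gene lists and tests were chosen with earlier results of these data known. Named genes were all members, Rfx2, called list genes with up to 3 others per list, genes overlapping a member, and the 5 most correlated with Drc1 and with Gas8. Alternatives were RLE or total-count scaling, no filter, DESeq2 1.42.0, a length trend, the unadjusted p, a test against 2-fold, thinning of the deepest library and leaving out each replicate.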

Additional observations from a re-analysis of the deposited data

Results flagged for a closer look

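The highest and lowest library of each group were compared with the rest of the group by Dixon's gap ratio for the 9 members, their summaries, Rfx2 and the marker lists, in 50 groups in all, and 2 were flagged, none of them a member. Chance flags about 5% of groups. The markers of efferent duct or epididymis epithelium summed to 252 CPM in Rfx2-/- replicate 2, where the other 3 of that genotype had 0.818 to 3.21 CPM. The summed Sertoli cell markers reached 1505 CPM in WT replicate 3, against 1208 to 1247 CPM in the other WT libraries.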

How the results depend on the processing

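Of 153 values of single members under 17 alternatives, 147 kept their direction and their call (Drc3, not called throughout, passed the p limit in some only). Gas8 missed the threshold in the test against the 2-fold limit (adjusted p = 0.234, edgeR), which left 3 members called lower in place of 4; under every other alternative 4 were lower, and under all of them 0 were higher. The sign turned for Fbxl13 with scaling by total counts (0.071), without WT replicate 5 (0.0011) and without Rfx2-/- replicate 1 (0.024), and for Iqcg without WT replicate 1 (-0.016) and without Rfx2-/- replicate 2 (-0.073); none of these passed the test. Leaving out a replicate gave -0.14 to 0.024 for Fbxl13 and -0.073 to 0.15 for Iqcg. The median of the members ran from -0.82 to -0.60, and from -0.82 to -0.67 when a replicate was left out. Over all genes, 575 were lower and 129 higher. The test against 2-fold gave 272 and 29, DESeq2 731 and 211, and the unadjusted p 750 and 262. Leaving out a replicate gave 447 to 632 lower and 92 to 175 higher. The cause was not tested. The pair test gave 30 pairs with a prior count of 2 and 29 without Rfx2-/- replicate 2. Promoter matches numbered 2 members at 11 letters or more, 3 at 10, 1 at 12, 0 at 13, and 4 with spacing of 0 to 3 bases. The labels give animal numbers but no litters, so no paired analysis was made. The paper states that littermates of matched age were used where possible, and any effect of litter was not tested. Depth limits little here, since every member had at least 23 counts in each library.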
